A study of Mus musculus with 15 samples.

Results

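Histone genes were examined in mouse CT26 colon carcinoma cells in which the arginine methyltransferase PRMT1 was knocked down or inhibited. The members were the genes whose symbol follows the mouse histone nomenclature (Hist1h to Hist4h, H1f, H2ac, H2bc, H3c, H4c, H2af, H2az, H2ax and H3f3 names), and 82 of the 34432 genes listed in both expression tables met this rule. They were divided by name and gene biotype into 61 replication-dependent genes, 7 variant genes (H1f0, H1f10, H2ax, H2az1, H2az2, H3f3a and H3f3b), 6 germline genes and 8 pseudogenes. The replication-dependent genes comprised 5 of linker histone H1, 16 of H2A, 16 of H2B, 12 of H3 and 12 of H4. A total of 51 of them lay in the large cluster on chromosome 13 (mm10, chr13:21715763-23764406) and 10 in the cluster on chromosome 3 (chr3:96219865-96270132).

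Core histones H2A, H2B, H3 and H4 form the protein spool of the nucleosome, and H1 binds the linker DNA between nucleosomes. Replication-dependent histone mRNAs are made in S phase in step with DNA synthesis. They are the metazoan mRNAs that normally lack a poly(A) tail: they end a few nucleotides after a conserved stem-loop that is bound by SLBP, and the U7 snRNP, with LSM10 and LSM11, guides the cut. Variant histones such as H2A.Z, H3.3 and H1.0 come from genes outside the clusters, are expressed throughout the cell cycle and are polyadenylated. The H2ax mRNA is unusual in that it can be made in both forms. An arginine in the tail of histone H4 is a known substrate of PRMT1, so histones are also targets of the enzyme at the protein level, which was not measured here.

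The knockdown experiment had 3 shControl libraries, from cells with a control hairpin, and 3 shPrmt1 libraries, from cells with a doxycycline-inducible hairpin against Prmt1 given doxycycline (DOX) for 3 days. The labels do not state whether shControl cells received DOX. The inhibitor experiment had 3 libraries each of cells treated for 48 h with vehicle, with 6 µM MS023 or with 6 µM GSK3368715, which are small-molecule inhibitors of type I arginine methyltransferases, the class to which PRMT1 belongs and which includes other members. Nothing in the labels says that the 3 libraries of a group came from separate cultures, so the p-values measure the spread between these libraries, which may be technical. The mRNA was selected by a poly(A) kit before sequencing, which limits the recovery of mRNAs without a tail. Levels are given as normalized counts, that is gene counts divided by the size factor of the library.

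Library depth ran from 17284091 to 29233738 reads on genes in the knockdown experiment and from 40119305 to 93697833 in the inhibitor experiment. Prmt1 itself had 5601, 5717 and 5620.1 normalized counts in shControl and 669, 761 and 683 in shPrmt1 libraries (log2 fold change -3.0 ± 0.069 (SE), adjusted p = 3.8e-07), whereas under MS023 and GSK3368715 its transcript did not pass the test (log2 fold changes -0.07 and -0.01, adjusted p = 0.351 and 0.914). Of 8 markers of colon epithelium, 2 (knockdown experiment) to 5 (inhibitor-treated cells) reached a mean of 10 normalized counts, Epcam had at most 3 reads in each of the 5 groups and Cdh1 had at most 3 reads in 4 of them, so these epithelial genes were close to absent. Krt18, a keratin of simple epithelia, fell after knockdown (-0.41, adjusted p = 0.0307) and rose under MS023 (0.55, adjusted p = 0.00069) and GSK3368715 (0.27, adjusted p = 0.0489) on the log2 scale, and its partner Krt8 rose under MS023 (1.83, adjusted p = 0.0334). Of 4 fibroblast markers, Col1a1 and Pdgfrb rose after knockdown, and the summed level was 2182 to 2707 normalized counts in shControl and 3612 to 5446 in shPrmt1 libraries. Under MS023 Pdgfrb rose and Col1a1 fell, and under GSK3368715 Pdgfrb rose. The summed level was 21382 to 21805 in vehicle, 14149 to 18419.7 in MS023, lower without overlap, and 20894 to 22544 in GSK3368715 libraries. That of the epithelial markers was lower without overlap after knockdown (729 to 812 against 544 to 669) and higher without overlap under MS023 (1284 to 1446 against 1786 to 1879) and GSK3368715 (1448 to 1599). Of 5 leukocyte markers 0 were called by limma, edgeR or DESeq2 (0 at an unadjusted p under 0.05, 1 or 2 tested), with Cd3e at 3 reads or fewer in each group, and of 3 neuron markers Syt1 rose under MS023. The part of these markers in the histone results was not tested. In the inhibitor experiment the second GSK3368715 library stood apart for histone transcripts: it was the highest of its group for 40 of the 47 replication-dependent genes tested. Values of the calls and sums under GSK3368715 are therefore given per library or also without it. The levels in the 2 experiments were normalized separately and are not compared with each other.

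The stem-loop that marks replication-dependent histone mRNA was searched for, on the transcript strand, in the annotated transcripts of GENCODE M21 (mm10) as GG, any 2 bases, CTTTT (or CTTCT where that was absent), any base, AG, any 2 bases and CC. It was found in 42 of the 61 replication-dependent genes (68.9%), in the variant gene H2ax, in the germline gene H1f6 and in none of the 8 pseudogenes, against 157 of 55450 annotated genes (0.283%). Of the 42 genes, 23 had annotated transcripts that ended within 100 nt of the stem-loop (3 to 74 nt after it) and 19 had a transcript that ran on for 108 to 4884 nt. Of these, 12 of the 19 longer models and 1 of the 23 short ones held AATAAA or ATTAAA, the usual polyadenylation signals, after the stem-loop. The other 19 replication-dependent genes had no match in the model, which says nothing of the mRNA in these cells. The stem-loops below, with 5 flanking bases on each side (3 after that of H2ac24, where the model ends), belong to genes whose changes are described next, and the 16 bases of the stem-loop are in capitals.

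H1f2: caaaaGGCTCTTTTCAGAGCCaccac
H2ac6: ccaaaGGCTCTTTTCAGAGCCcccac
H2bc6: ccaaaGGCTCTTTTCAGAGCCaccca
H3c14: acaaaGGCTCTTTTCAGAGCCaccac
H4c9: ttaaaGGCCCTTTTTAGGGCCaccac
H4c11: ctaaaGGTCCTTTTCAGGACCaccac
H2ax: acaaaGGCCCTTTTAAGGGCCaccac
H2ac24: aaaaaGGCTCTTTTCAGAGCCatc
H2bc12: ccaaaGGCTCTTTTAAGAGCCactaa

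The first 4 of these share 1 stem-loop, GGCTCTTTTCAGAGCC, the form found in 24 of the 42 replication-dependent genes, and so does H2ac24. The stem-loops of H4c9, H4c11, H2ax and H2bc12 differ from it. These stem-loops lie at chr13:23739512-23739527 on the plus strand for H1f2, chr13:23683477-23683492 on the minus strand for H2ac6 and chr9:44335240-44335255 on the plus strand for H2ax. The annotated transcript continues past the stem-loop for 840 nt in H1f2, 2010 nt in H2ac6, 1861 nt in H2bc6, 1167 nt in H3c14, 330 nt in H4c9, 385 nt in H4c11 and 822 nt in H2ax. It ends 3 nt after the stem-loop in H2ac24 and 30 nt after it in H2bc12. The stem-loops of H3c15, which rose under MS023, and H4c3, which fell, are not printed. Their transcripts continue past the stem-loop for 377 and 454 nt.

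H2ac6 (chr13:23681467-23683948, minus strand) and H2bc4 (chr13:23684199-23692908, plus strand) form a divergent pair, and the RefSeq promoter window of H2ac6 (GRCm38.p6, chr13:23683910-23684209, printed 5′ to 3′ on the minus strand), which spans the gap between them, is shown because H2bc4 rose in all 3 comparisons with a control. H2ac6 was called after knockdown alone, passed the count minimum there through the shPrmt1 libraries, and lost that call without any 1 shControl library. With it is that of H1f2 (GRCm38.p6, chr13:23738557-23738856, plus strand), the replication-dependent gene of highest read count among those that rose. The windows hold 250 bases before and 50 after the gene start. Capitals mark CCAAT, the octamer ATTTGCAT and TATAAA on either strand, which do not overlap each other in these windows.

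H2ac6 promoter: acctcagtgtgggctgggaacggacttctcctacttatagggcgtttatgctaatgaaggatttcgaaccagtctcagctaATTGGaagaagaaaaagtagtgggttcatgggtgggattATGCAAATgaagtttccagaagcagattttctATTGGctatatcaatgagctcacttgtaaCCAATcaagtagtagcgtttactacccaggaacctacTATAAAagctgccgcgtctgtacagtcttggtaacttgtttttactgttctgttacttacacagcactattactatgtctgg
H1f2 promoter: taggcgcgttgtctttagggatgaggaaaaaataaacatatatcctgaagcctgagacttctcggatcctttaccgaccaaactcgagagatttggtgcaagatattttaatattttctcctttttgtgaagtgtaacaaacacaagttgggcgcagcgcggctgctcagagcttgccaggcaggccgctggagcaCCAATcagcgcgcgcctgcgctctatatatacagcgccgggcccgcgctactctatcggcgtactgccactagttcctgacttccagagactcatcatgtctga

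The shared window of H2ac6 and H2bc4 held CCAAT 3 times, the octamer 1 time and TATAAA 1 time, and that of H1f2 held CCAAT 1 time. Promoters were found for 68 of the 82 members. CCAAT was present in 47 of 55 replication-dependent promoters (85.5%) against 37.4% of the 32851 promoters of the table, TATAAA in 58.2% against 13.6%, and the octamer in 18.2% against 1.7%. Among the 13 H2B promoters all held CCAAT and 38.5% the octamer. A match is a description of the letters in the window and not a mapped binding site.

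Histone transcripts in these libraries came mostly from the variant genes. The 7 variant genes summed to 43974 ± 454 normalized counts (SD, n = 3) in shControl cells and the 61 replication-dependent genes to 1425 ± 82. In vehicle-treated cells the sums were 141885 ± 6045 and 6043 ± 413. Per kilobase of exon, vehicle-treated cells had 25344 ± 1525 normalized counts of H2az1, which encodes H2A.Z, 18766 ± 1345 of H1f0, which encodes the linker histone H1.0, 13095 ± 579 of H3f3b and 4429 ± 197 of H3f3a, which both encode H3.3 (SD, n = 3). These 4 genes kept this order in shControl cells, and in shPrmt1 cells H3f3b stood above H1f0 (5006 ± 586 and 3701 ± 196). H2ax, the source of the DNA damage mark gamma-H2AX, had 1850.2 ± 240.2 per kilobase and H2az2, the second H2A.Z gene, 718 ± 61.5 in vehicle-treated cells.

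Replication-dependent genes were low, with 1 exception. H2ac24 had 7771 ± 912 normalized counts per kilobase in vehicle-treated cells, between H3f3b and H3f3a. Its transcript is 100% identical to that of H2ac23 over 93.8% of its length and near-identical to 13 genes in all, so the counting could have placed reads of several H2A genes on it. The next were H1f2 (255 ± 24) and H2bc4 (246 ± 20.4), which did not differ from each other beyond their spread. The median replication-dependent gene had a mean of 4.31 normalized counts in shControl and 15.8 in vehicle-treated cells, and 12 and 41 of the 61 reached 10. The germline genes, which include the testis linker histone H1f6 and the oocyte linker histone H1f8, had at most 3 reads in each group of the knockdown experiment, and the pseudogenes had means of at most 11.8 normalized counts.

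**Figure D1:**
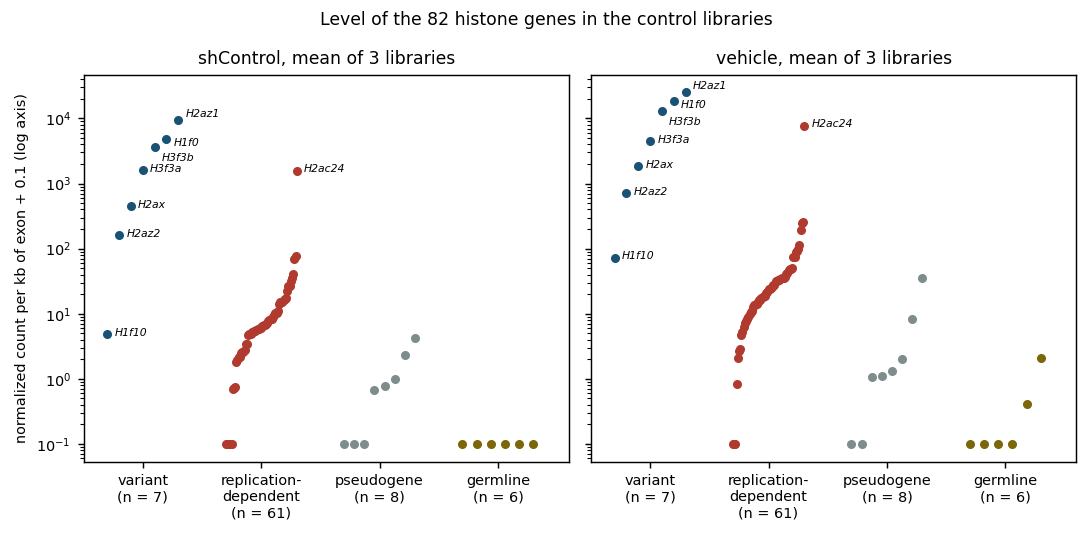
Mean normalized count per kilobase of exon plus 0.1 (log axis) of each of the 82 histone genes in shControl and in vehicle-treated cells, 1 point per gene, with the genes of a class ordered by level. The variant genes other than H1f10 lie above the replication-dependent genes other than H2ac24.

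After Prmt1 knockdown, 9 histone genes passed the test, 7 higher and 2 lower. The genes that rose were the replication-dependent H1f2, H2bc4, H3c14, H4c9 and H2ac6 and the variants H2ax and H3f3b, with log2 fold changes from 0.44 to 1.72. The genes that fell were H1f0 and H2ac24. Of the 82 members, 24 passed the minimum of 10 normalized counts in at least 3 libraries and were tested, so 37.5% of those tested were called, against 14.7% of all 11485 genes tested (7.5% higher and 7.17% lower). H2ac6, H2bc8 and H3c4 passed this minimum through the shPrmt1 libraries alone. The libraries are bulk RNA, so more cells in a phase that expresses a gene and more RNA per cell cannot be told apart. They were also selected for poly(A). For replication-dependent genes, a change of total mRNA and a change of the share with a tail therefore cannot be told apart either.

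H1f2, which encodes the linker histone H1.2, had 119.7, 113 and 125 normalized counts in shControl and 326, 258 and 329 in shPrmt1 libraries. Every shPrmt1 library lay above every shControl library (log2 fold change 1.34 ± 0.13 (SE), adjusted p = 0.00048). H2bc4, an H2B gene, had 70.4, 88.6 and 78.5 against 213, 201 and 224 (log2 fold change 1.42 ± 0.13 (SE), adjusted p = 0.00042). H2ac6, the H2A gene on the other side of their shared promoter, was much lower in level, at 7.04, 5.04 and 5.53 against 19.4, 14.5 and 20.4 (log2 fold change 1.47 ± 0.34 (SE), adjusted p = 0.0252). Without any 1 of the shControl libraries H2ac6 lost its call (adjusted p up to 0.0794), and without an shPrmt1 library it was under the minimum. H3c14, an H3 gene of the chromosome 3 cluster (chr3:96246685-96248509), had 15.8, 22.3 and 9.95 against 53.7, 43.6 and 62.3 (log2 fold change 1.72 ± 0.31 (SE), adjusted p = 0.0097). H4c9, an H4 gene, had 15.8, 20.9 and 21 against 44.6, 44.8 and 37.8 (log2 fold change 1.11 ± 0.23 (SE), adjusted p = 0.0157) and lost its call without shControl replicate 1 (adjusted p = 0.067).

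The calls of H1f2, H2bc4 and H3c14 held without each library in turn. A near-identical copy was counted at 95% identity or more over at least 30% of a transcript. By this rule H1f2 has no copy, and it has no exon overlap in the annotation. For H2ac6 the rule could not count a match of the histone part alone, as its stem-loop starts at base 457 of 2482. It shares 108 exonic bases with another gene on the same strand and 138 with one on the other strand. H2bc4 is 98.0% identical to H2bc6 over 33.9% of its transcript, and H4c9 is 96.6% identical to H4c18. All 1825 exonic bases of H3c14 are shared with another gene model on the same strand, to which it is 100% identical. H3c15 lies near H3c14 in the chromosome 3 cluster and is 100% identical to it over 65.3% of the transcript. Summed over both genes, the H3c14 and H3c15 transcripts were 17.8 ± 6.23 in shControl and 58.7 ± 11.1 in shPrmt1 libraries (SD, n = 3), a log2 difference of 1.7.

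Among the variants, H2ax had 651, 577 and 634 normalized counts in shControl and 1404, 1244 and 1376 in shPrmt1 libraries (log2 fold change 1.11 ± 0.082 (SE), adjusted p = 0.00016), and its call held without each library in turn. H3f3b, one of the pair of H3.3 genes, had 10803, 11511 and 10514 against 13967, 16911 and 13818 (log2 fold change 0.44 ± 0.085 (SE), adjusted p = 0.0123) and lost its call without shControl replicate 1 or 3 (adjusted p up to 0.0609). H3f3a, the other H3.3 gene, had 5527, 5729 and 5513 against 4925, 5776 and 5009.7 and did not pass the test (log2 fold change -0.10 ± 0.072 (SE), adjusted p = 0.391). H1f0 had 10293, 9239 and 10583 against 7848, 7142 and 7829.9 (log2 fold change -0.40 ± 0.071 (SE), adjusted p = 0.0084) and lost its call without shControl replicate 1 (adjusted p = 0.0512). The most abundant variant, H2az1, had 16234, 17189.8 and 16108 against 15613, 17122 and 15166, and the groups overlapped (log2 fold change -0.05 ± 0.063 (SE), adjusted p = 0.625). H2ac24 had 752, 734 and 804 against 594, 473 and 628 (log2 fold change -0.44 ± 0.11 (SE), adjusted p = 0.0353). Its call was lost without any 1 of the shControl libraries or without shPrmt1 replicate 1 (adjusted p up to 0.129).

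Of the other members tested, H1f3 (0.85, adjusted p = 0.0652), H2ac18 (0.73, adjusted p = 0.11) and H3c4 (1.07, adjusted p = 0.123) had the largest log2 fold changes that did not pass the test. An unadjusted p under 0.05 was found for 12 of the 24 members, against 31.2% of all genes. The groups did not overlap in 13 members that were higher and 2 that were lower in shPrmt1 cells, against 19.2% and 18.9% of all genes tested. Over the 21 members left without H2ac6, H2bc8 and H3c4, which had to lean higher, 10 were higher and 2 lower without overlap, 10 had an unadjusted p under 0.05 and 8 were called (38.1%). The median log2 fold change of the 18 replication-dependent genes tested was 0.57 (0.50 over the 15 left without H2ac6, H2bc8 and H3c4, of which 13 were above 0) and that of the 6 variants tested was -0.07, against a value within 0.01 of 0 over all genes. With a minimum of 50 normalized counts only 4 replication-dependent genes were tested, H1f2 and H2bc4 above 0 and H2bc21 and H2ac24 below it. Without shControl replicate 1, 4 members were called higher (H1f2, H2ax, H2bc4 and H3c14) and 0 lower.

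**Figure D2:**
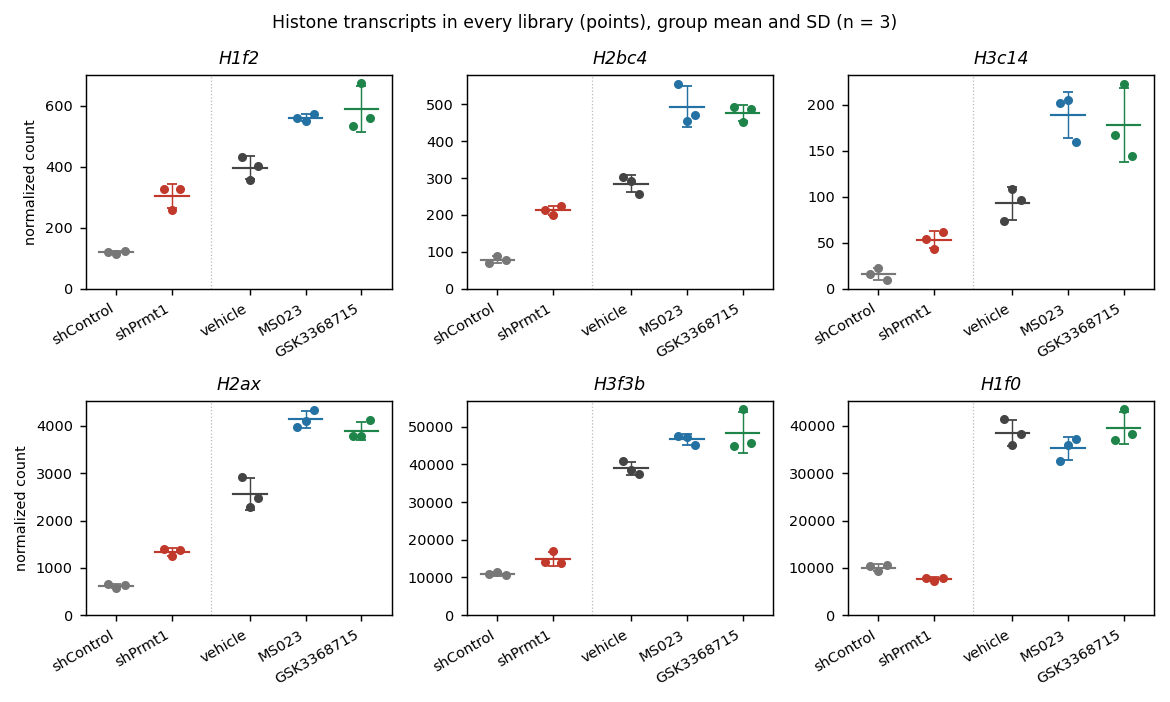
Normalized count of H1f2, H2bc4, H3c14, H2ax, H3f3b and H1f0 in every library (points), with the group mean (line) and SD (bar, n = 3), and a dotted line between the separately normalized knockdown and inhibitor experiments. In the first 5 genes every treated library lies above every control library of its experiment, and in H1f0 the shPrmt1 libraries lie below the shControl libraries.

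Under MS023, 15 histone genes passed the test, 11 higher and 4 lower, of 55 tested (27.3%), against 27.9% of all 13014 genes tested (13.7% higher and 14.1% lower). The share of members called was therefore near that of all genes, and the description is of single genes. The replication-dependent genes that rose were H1f2, H2bc4, H2bc6, H2bc24, H3c14, H3c15, H4c9 and H4c11, and the variants were H2ax, H2az2 and H3f3b. H1f10, H2ac24, H2bc12 and H4c3 fell. An unadjusted p under 0.05 was found for 17 members, against 40.2% of all genes, and the groups did not overlap in 12 members that were higher and 10 that were lower, against 22.4% and 22.1%. The median of the members tested was -0.05 on the log2 scale.

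H1f2 had 433, 358 and 402 normalized counts in vehicle and 559, 550.2 and 573 in MS023 libraries (log2 fold change 0.50 ± 0.11 (SE), adjusted p = 0.0061). H2bc4 had 303, 293 and 258 against 556, 454 and 469.8 (log2 fold change 0.79 ± 0.11 (SE), adjusted p = 0.00049), and H3c14 had 73.3, 109 and 96.5 against 202, 206 and 159.8 (log2 fold change 1.03 ± 0.20 (SE), adjusted p = 0.0038). In these 3 genes every MS023 library lay above every vehicle library and the calls held without each library in turn. H3c15 had 13.4, 9.08 and 10.9 against 21.9, 37.2 and 31.0 (log2 fold change 1.34 ± 0.32 (SE), adjusted p = 0.0112). Summed over H3c14 and H3c15 the level was 104.0 ± 15.9 in vehicle and 219 ± 26.3 in MS023 libraries, a log2 difference of 1.07 in the sum over these copies, which was not tested.

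H4c9 had 55.0, 75.1 and 73.6 against 117, 106 and 89.1 (log2 fold change 0.62 ± 0.18 (SE), adjusted p = 0.0267), and H2bc6 had 99.0, 112 and 121 against 152, 158 and 169 (log2 fold change 0.53 ± 0.14 (SE), adjusted p = 0.019). H2bc6 shares 496 exonic bases with H1f4 on the same strand, and H1f4 had 126, 146 and 164 against 117, 79.8 and 135 with overlapping groups. H4c11 had 8.55, 10.7 and 9.65 against 27.5, 28.4 and 14.5 (log2 fold change 1.15 ± 0.34 (SE), adjusted p = 0.0295). The low gene H2bc24 had 0, 4.95 and 0 against 11.2, 18.6 and 4.84 with overlapping groups (adjusted p = 0.0355 by limma and 0.0819 by edgeR). No vehicle library reached 10 normalized counts, so it passed the minimum through inhibitor libraries alone and had to lean higher there. It is 99.8% identical to H2bc23 over 91.1% of its transcript. Summed over this pair the level was 19.2 ± 5.70 in vehicle and 40.9 ± 8.37 in MS023 libraries, a log2 difference of 1.07. All of these lost their call when certain single libraries were left out, MS023 replicate 2 in every case, with an adjusted p of up to 0.0984 for H4c9, 0.0699 for H2bc6, 0.113 for H4c11, 0.128 for H2bc24 and 0.0528 for H3c15.

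H2bc12 had 18.3, 19.8 and 30.1 against 8.75, 6.56 and 2.91 (log2 fold change -1.81 ± 0.50 (SE), adjusted p = 0.0217) and H4c3 had 29.3, 18.2 and 19.3 against 8.75, 5.47 and 11.6 (log2 fold change -1.30 ± 0.41 (SE), adjusted p = 0.0377). Both are low genes, with means of 22.8 and 22.3 normalized counts in vehicle-treated cells, and the calls were lost without vehicle replicate 3 or MS023 replicate 3 for H2bc12 (adjusted p up to 0.0792) and without any 1 of the vehicle libraries or MS023 replicate 1 or 2 for H4c3 (up to 0.127). H2ac24 had 4248, 3556 and 3433 against 2441, 2660.0 and 3292 (log2 fold change -0.43 ± 0.12 (SE), adjusted p = 0.0255), and without vehicle replicate 1 or MS023 replicate 1 or 2 its adjusted p was up to 0.0982.

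In the variant class, H2ax had 2927, 2278 and 2477 normalized counts in vehicle and 3985, 4097 and 4341 in MS023 libraries (log2 fold change 0.70 ± 0.085 (SE), adjusted p = 0.00031). H2az2 had 1288, 1103 and 1128 against 1445, 1584 and 1619 (log2 fold change 0.40 ± 0.091 (SE), adjusted p = 0.0082), whereas its abundant paralog H2az1 had 46201, 46919 and 41910.3 against 43479, 40734 and 38577 and did not pass the test (log2 fold change -0.14 ± 0.064 (SE), adjusted p = 0.135). H3f3b had 40888, 38470.5 and 37552 against 47397, 47343 and 45033 (log2 fold change 0.26 ± 0.074 (SE), adjusted p = 0.0252). H1f10, which encodes the linker histone H1X, had 96.5, 84.2 and 85.6 against 41.9, 50.3 and 56.2 (log2 fold change -0.84 ± 0.18 (SE), adjusted p = 0.0062). In these 4 called variants the groups did not overlap, and the calls of H2ax, H2az2 and H1f10 held without each library in turn. That of H3f3b was lost without vehicle replicate 2 or 3 or MS023 replicate 1 or 2 (adjusted p up to 0.0848). H1f0 had 41448, 35939 and 38304 against 32583, 35902 and 37232, and the groups overlapped (log2 fold change -0.13 ± 0.079 (SE), adjusted p = 0.248). The number of members called higher fell to 5 without MS023 replicate 2, and to 7 without MS023 replicate 1 or without vehicle replicate 1.

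GSK3368715 raised 7 histone genes and lowered 0 of the 55 tested (12.7%), against 9.64% of all genes tested (5.16% higher and 4.47% lower). They were the replication-dependent H1f2, H2bc4, H3c14 and H2bc24 and the variants H2ax, H2az2 and H3f3b. This comparison shares its vehicle libraries with that of MS023. No member was lower at an adjusted p under 0.05 by limma, edgeR (4.4% of all genes were) or DESeq2 (6.68% were), and 0 of the 16 members with an unadjusted p under 0.05 (26.1% of all genes had one) were lower. Without overlap, 20 members were higher and 1, H1f10, was lower, against 13.7% and 14.1% of all genes. The members tested include some that needed inhibitor libraries to pass the minimum, which favours higher values there.

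H1f2 had 533, 675 and 561 normalized counts in the GSK3368715 libraries (log2 fold change 0.56 ± 0.11 (SE), adjusted p = 0.01), H2bc4 had 492, 451 and 486 (log2 fold change 0.74 ± 0.11 (SE), adjusted p = 0.0028) and H2ax had 3789, 3788 and 4116 (log2 fold change 0.61 ± 0.085 (SE), adjusted p = 0.0027). All of these values were above every vehicle library given above, and the calls of these 3 genes held without each library in turn. H3c14 had 167, 222 and 144 (log2 fold change 0.92 ± 0.20 (SE), adjusted p = 0.0169), H3f3b had 44962, 54636 and 45716 (log2 fold change 0.31 ± 0.074 (SE), adjusted p = 0.0268) and H2az2 had 1447, 1692 and 1395 (log2 fold change 0.36 ± 0.091 (SE), adjusted p = 0.032). Without the second GSK3368715 library these lost their calls, with adjusted p of up to 0.0535, 0.0966 and 0.106 over the libraries left out. H3f3b also lost its call without vehicle replicate 3, and H2az2 without vehicle replicate 2 or 3, GSK3368715 replicate 1 or MS023 replicate 2, which shares the fit. H2bc24, which passed the minimum through inhibitor libraries alone, had 5.34, 22.6 and 16.4 (adjusted p = 0.0487 by limma and 0.0976 by edgeR). It lost its call without 7 of the 9 libraries. Summed with its copy H2bc23 it had 35.1, 31.2 and 37.2 normalized counts (34.5 ± 3.06) against 19.2 ± 5.70 in vehicle libraries.

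Counts over the replication-dependent genes changed without the second GSK3368715 library. Of the 47 tested, 39 were above 0 on the log2 scale with a median of 0.42, and without that library 29 of 45 were above 0 with a median of 0.27. A mean of at least 10 normalized counts was reached by 41 replication-dependent genes in vehicle and 47 under GSK3368715. Some of those tested therefore needed inhibitor libraries to pass the minimum, which favours values above 0. The counts were not taken without them. The number called higher among all members was 3 without it (H1f2, H2ax and H2bc4) and 4 without vehicle replicate 3. H3c15 (1.11, adjusted p = 0.0555), H2ac6 (0.90, adjusted p = 0.0685) and H2bc6 (0.42, adjusted p = 0.0881) were the members nearest to the threshold that did not pass it.

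**Figure D3:**
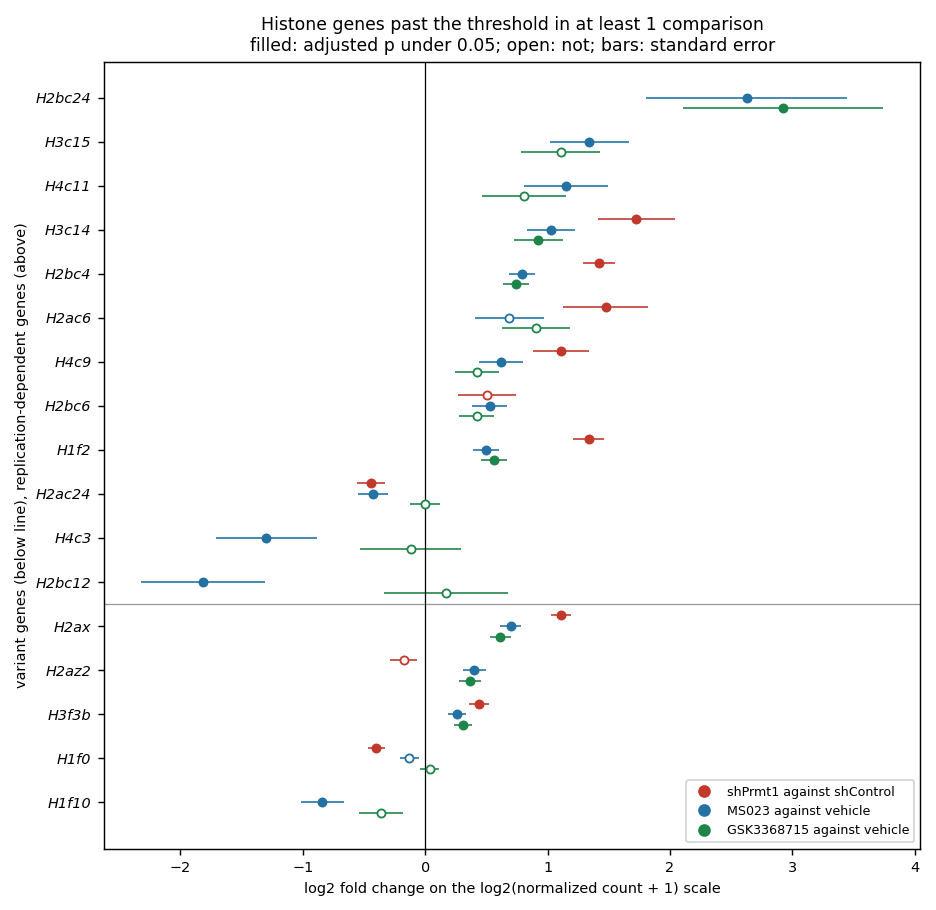
Log2 fold change with its standard error for the 17 histone genes called in at least 1 comparison, for shPrmt1 against shControl (red), MS023 against vehicle (blue) and GSK3368715 against vehicle (green), with filled points past an adjusted p of 0.05. H1f2, H2bc4, H3c14, H2ax and H3f3b are filled in all 3 comparisons, and genes with no red point were below the minimum in the knockdown experiment.

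The inhibitors were compared at the same dose and time, as 1 pair of compounds over the 55 members. No member passed the test by limma (0.515% of all 13014 genes did) or edgeR (0.53% did), 6 had an unadjusted p under 0.05 against 13.2% of all genes, and DESeq2 called 1, H2ac24, against 2.9% of all genes. Of the 55, 42 were above 0 with a median of 0.39. A mean of at least 10 normalized counts was reached by 39 replication-dependent genes under MS023 and 47 under GSK3368715, so the minimum favours values above 0 here. Without overlap 6 were higher and 0 lower under GSK3368715, against 11.4% and 9.95% of all genes. The summed replication-dependent level was higher by 0.28 on the log2 scale, and by 0.16 without the second GSK3368715 library. For the genes that rose under both, the differences of GSK3368715 from MS023 had 95% intervals of -0.17 to 0.30 for H1f2, -0.28 to 0.19 for H2bc4, -0.28 to 0.10 for H2ax, -0.11 to 0.21 for H3f3b and -0.54 to 0.34 for H3c14 on the log2 scale. The members that fell under MS023 were chosen for their low values in those libraries, so their levels under GSK3368715 are given as a description with no test. H2bc12 had 31.3, 41.9 and 11.9 normalized counts, H4c3 had 14.5, 33.3 and 16.4, H2ac24 had 3407, 4266 and 3574 and H1f10 had 61.7, 78.4 and 66.9. The differences that missed the threshold do not show that the inhibitors acted alike on these genes.

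The replication-dependent genes were then divided by their annotated 3′ end, which the rule for members did not use. After knockdown, the 10 genes tested whose model runs on for 100 nt or more past the stem-loop had a median log2 fold change of 0.96, and 4 were called (H1f2, H2ac6, H3c14 and H4c9), which is 40% of them against 14.7% of all genes. Of these 10, 3 had passed the minimum through the shPrmt1 libraries alone and had to be higher there, and the other 7 had a median of 0.85 with 3 called. The 4 genes tested whose model ends within 100 nt had a median of 0.32, and 1 of them, H2ac24, was called, lower (25%). Under MS023, the 19 genes with longer models had a median of 0.20, with 6 called higher and 1 lower (H4c3; 36.8% in all), and the 17 that end within 100 nt had a median of -0.38, with 0 higher and 2 lower (H2ac24 and H2bc12; 11.8%), against 27.9% of all genes. Under GSK3368715 the medians were 0.51 and 0.26 with 2 (10.5%) and 0 called against 9.64% of all genes, and without its second library 0.35 and -0.05. The genes with no stem-loop match had medians of 0.29 (4 tested), 0.26 (11 tested) and 0.66 (11 tested) after knockdown, MS023 and GSK3368715, the last being 0.55 over 9 genes without GSK3368715 replicate 2. Under the inhibitors these medians were above those of the genes with longer models, and after knockdown the median was below it. Of the 19 genes with no match, 11 had a vehicle mean below 10 normalized counts, against 9 under MS023 and 8 under GSK3368715. Some of the 11 tested therefore needed inhibitor libraries to pass the minimum, which favours higher values there. The medians were not taken without them.

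H2bc4, which rose in all 3 comparisons, belonged to neither set, since its model of 1156 exonic bases has no match to the stem-loop, and H2ax, a variant, has the stem-loop and a longer model. The models differ in level as well as in length: in vehicle-treated cells 15 of the 19 genes with longer models, and 12 of the 23 that end within 100 nt, had at least 10 normalized counts in all 3 libraries. The difference between the sets was not tested, and the annotated model does not show which 3′ end was used in these cells, because the deposited values are per gene.

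**Figure D4:**
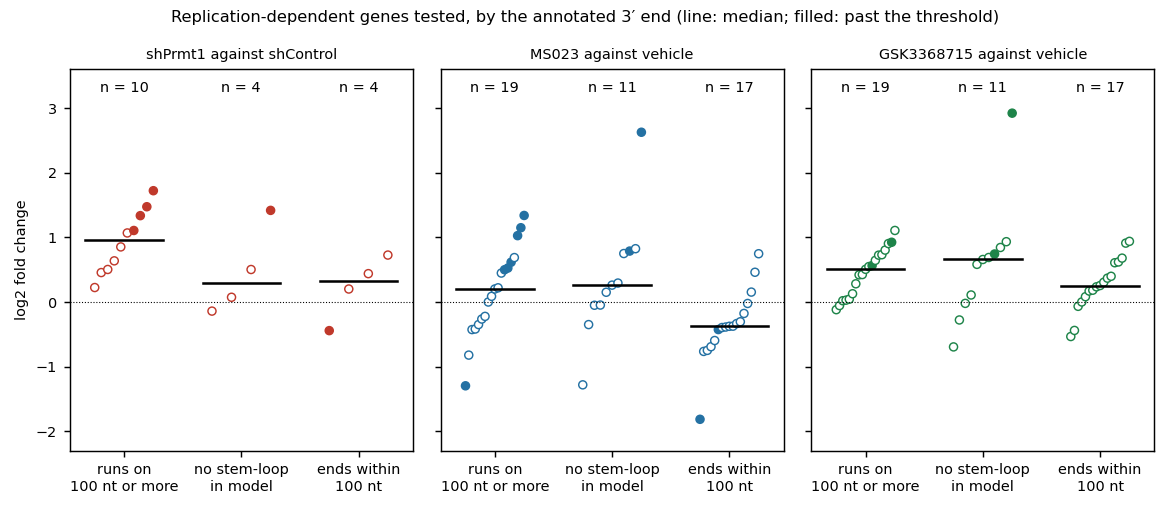
Log2 fold change of each replication-dependent gene tested (points, filled where past the threshold), by whether its annotated transcript runs on past the stem-loop, lacks a stem-loop match or ends within 100 nt of it, with the median as a line. Under MS023 the medians are 0.20, 0.26 and -0.38 from left to right.

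Summed per library, the replication-dependent transcripts without H2ac24 had 31.3 ± 2.78 CPM (summed normalized counts relative to the library total) in shControl and 56.2 ± 4.68 in shPrmt1 libraries (SD, n = 3), a ratio of 1.80. In the inhibitor experiment they had 38.3 ± 0.66 in vehicle, 47.4 ± 2.06 in MS023 and 53.3 ± 10.4 in GSK3368715 libraries, of which the 3 values were 50.9, 64.7 and 44.3. The treated libraries did not overlap their controls in any of these. H2ac24 alone was a large part of the replication-dependent sum, and with it the sums were 67.4 ± 4.17 in shControl and 83.6 ± 8.41 in shPrmt1 libraries, and 100.7 ± 7.52, 95.1 ± 7.50 and 116 ± 17.5 (108, 136 and 104 by library) in vehicle, MS023 and GSK3368715 libraries, so that under MS023 the log2 difference was -0.08 with it, with overlapping groups, and 0.31 without it. As a mean of log2 values over the members tested, the MS023 difference with H2ac24 was 0.02. Without H2ac24 that mean was 4.66 in vehicle and 4.69 in MS023 libraries, with overlapping groups, so the rise of the sum was not one of the typical member. Under GSK3368715 the difference with H2ac24 was 0.20, and 0.08 without the second library. The part from genes whose model runs on was 15 ± 1.07 against 30.9 ± 2.42 in the knockdown, and 19.2 ± 0.59, 25.3 ± 0.62 and 27.5 ± 5.44 (26.1, 33.5 and 22.9 by library) under vehicle, MS023 and GSK3368715. The part from genes with no stem-loop match was also higher without overlap, at 11 ± 0.80 against 18.2 ± 1.49 in the knockdown, and 12.4 ± 0.16, 16.4 ± 0.88 and 17.2 ± 1.42 (17.4, 18.6 and 15.7 by library) under vehicle, MS023 and GSK3368715. Much of this rise was that of H2bc4. It had means of 79.2 in shControl and 212 in shPrmt1 libraries, of 234 and 376 normalized counts in this part. In vehicle, MS023 and GSK3368715 libraries it had 285, 493 and 476, of 744, 963 and 1024. This part was not summed without H2bc4. The part from genes that end within 100 nt, most of it H2ac24, was lower without overlap after knockdown (41.3 ± 3.24 against 34.4 ± 4.60) and under MS023 (69.1 ± 7.28 against 53.4 ± 7.89), and overlapped under GSK3368715 (64.9, 84.4 and 65.5). Without H2ac24 this part was 5.21 ± 1.51 against 7.10 ± 1.83 in the knockdown, with overlapping groups. Under vehicle, MS023 and GSK3368715 it was 6.66 ± 0.44, 5.67 ± 0.85 and 8.53 ± 3.64 (7.35, 12.6 and 5.63 by library), also with overlap. The fall without overlap was therefore that of H2ac24. The variant genes summed to 2079 ± 31.3 in shControl and 2189 ± 108 in shPrmt1 libraries, and to 2363 ± 111, 2434 ± 25 and 2576 ± 187 under vehicle, MS023 and GSK3368715, with overlapping groups. Without shPrmt1 replicate 2 the log2 difference of the variant sum after knockdown moved from 0.07 to 0.03, and without the second GSK3368715 library that under GSK3368715 moved from 0.12 to 0.06. The sums were not tested.

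**Figure D5:**
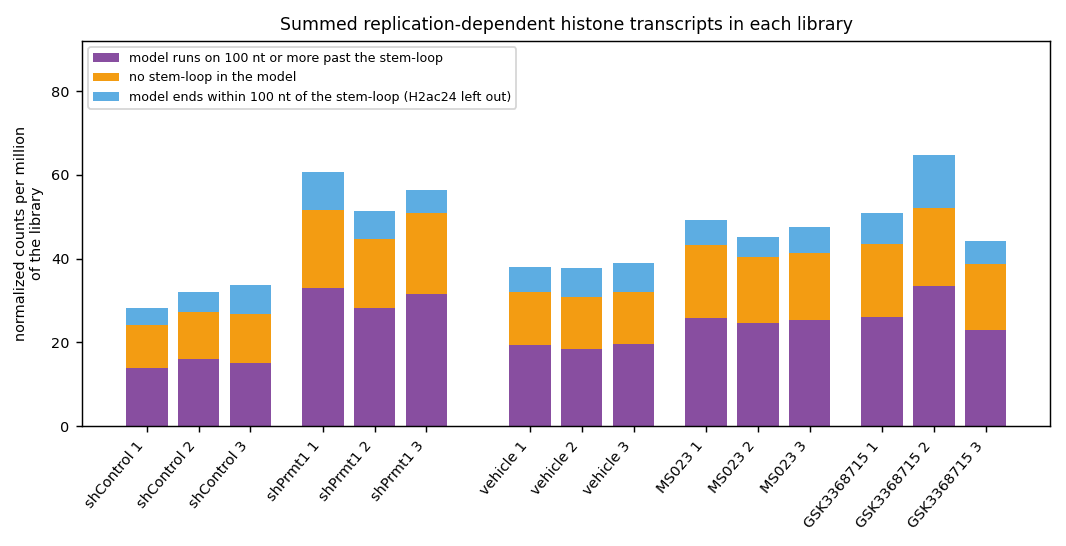
Summed CPM of replication-dependent histone genes other than H2ac24, stacked by the annotated 3′ end, for each of the 15 libraries (bars start at 0). The shPrmt1 libraries lie above the shControl libraries, and the second GSK3368715 library is the highest bar of the inhibitor experiment.

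Genes that make, process and deposit histones were examined beside the members. Of 18 genes of histone mRNA 3′ end formation and decay, all tested, 1 rose and 1 fell after knockdown, 2 rose and 3 fell under MS023, and 1 rose and 2 fell under GSK3368715. These are 11.1%, 27.8% and 16.7% of the list, against 14.7%, 27.9% and 9.64% of all genes, so after knockdown and MS023 the share was not above that of all genes. Slbp, the stem-loop binding protein, had 2731, 2789.8 and 2586 normalized counts in shControl and 2459, 3155 and 2507 in shPrmt1 libraries (log2 fold change -0.01 ± 0.099 (SE), adjusted p = 0.974), and under the inhibitors its log2 fold changes were 0.17 (adjusted p = 0.097) for MS023 and 0.12 (adjusted p = 0.334) for GSK3368715. Those that fell were Cpsf3, the endonuclease that cuts histone pre-mRNA and also cleaves before polyadenylation, in all 3 comparisons, Lsm11, a U7 snRNP subunit, under both inhibitors, and its partner Lsm10 under MS023. Cpsf3 fell by 0.31, 0.35 and 0.24 on the log2 scale after knockdown, MS023 and GSK3368715. Lsm11 had 761, 838 and 844 in vehicle, 609.8, 579.7 and 586 in MS023 (log2 fold change -0.46 ± 0.072 (SE), adjusted p = 0.0012) and 635, 659.5 and 645 in GSK3368715 libraries (log2 fold change -0.33 ± 0.072 (SE), adjusted p = 0.0178), and in the knockdown its groups overlapped (-0.20, adjusted p = 0.336). Those that rose were Ncbp2, a cap-binding subunit, after knockdown and MS023, and Mif4gd, the SLBP-interacting protein, under both inhibitors.

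Of 6 genes of histone gene transcription, 0 passed the test by limma or edgeR after knockdown (1 fell by DESeq2 and 2 had an unadjusted p under 0.05) and 0 by limma, edgeR or DESeq2 under GSK3368715 (0 had an unadjusted p under 0.05), and under MS023 Yy1 rose and Ccne2 fell (33.3%). All genes were called at 14.7%, 9.64% and 27.9% in these comparisons. Npat, the histone locus coactivator, had log2 fold changes of 0.12, -0.01 and 0.03, none past the test (adjusted p = 0.437, 0.922 and 0.825). Of a list of 30 chaperone and deposition genes, which holds 1 histone, the centromeric H3 variant Cenpa, 5 fell by limma and edgeR and 6 by DESeq2 after knockdown, 11 were lower at an unadjusted p under 0.05, and 0 rose by any of these. By limma, 7 fell and 1 rose under MS023, and 2 fell and 1 rose under GSK3368715. The shares that fell were 16.7%, 23.3% and 6.67%, against 7.17%, 14.1% and 4.47% of all genes, and the shares that rose were 0%, 3.33% and 3.33%, against 7.5%, 13.7% and 5.16%. Cenpa was among the genes that fell under MS023, and over the other 29 genes the shares that fell were 17.2%, 20.7% and 6.9%. Asf1b, a chaperone of newly made H3 and H4, had 2058, 2102 and 2087 in shControl and 1754, 1485 and 1741 in shPrmt1 libraries (log2 fold change -0.33 ± 0.078 (SE), adjusted p = 0.0263) and did not pass in the inhibitor experiment, with -0.28 for MS023 (adjusted p = 0.0572) and -0.07 for GSK3368715 (adjusted p = 0.724). Mms22l, which loads repair factors onto newly replicated chromatin with TONSL, had 2562, 2560.2 and 2689 in vehicle, 1851, 1759.8 and 1787 in MS023 (log2 fold change -0.53 ± 0.055 (SE), adjusted p = 0.00013) and 2025, 1963 and 1883 in GSK3368715 libraries (log2 fold change -0.41 ± 0.055 (SE), adjusted p = 0.0021). Daxx, a chaperone of H3.3, rose under MS023 (0.23) and GSK3368715 (0.37). Hira, another H3.3 chaperone, was among the genes that fell after knockdown and MS023.

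Genes of S phase were counted in the same way. Of 25 such genes, 4 fell after knockdown by limma (Tk1, Tyms, E2f1 and Lig1), and edgeR and DESeq2 each called 4 lower. At an unadjusted p under 0.05, 7 were lower, and 0 were higher by any of these. The median was -0.07. Under MS023, 3 fell (Tk1, Tyms and E2f1) and 4 rose (Cdt1, Cdc6, Mcm6 and Mcm3), with a median of 0.04. Under GSK3368715, 0 passed by limma or edgeR, against 9.64% and 9.54% of all genes. By DESeq2, 2 were higher and 1 lower, against 7.23% and 6.68% of all genes. At an unadjusted p under 0.05, 3 were higher and 1 lower, against 26.1% of all genes in either direction. After knockdown 16% fell and 0% rose, against 7.17% and 7.5% of all genes, and under MS023 12% fell and 16% rose, against 14.1% and 13.7%. E2f1, an activator of S phase genes, had 1358, 1196 and 1391 in shControl and 916, 638 and 838 in shPrmt1 libraries (log2 fold change -0.73 ± 0.13 (SE), adjusted p = 0.0094), with no overlap. With MS023 its log2 fold change was -0.32 (adjusted p = 0.0083), and with GSK3368715 it was -0.25 (adjusted p = 0.0544). Cell cycle phase was not measured in these libraries, and its part in the histone changes was not tested.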

How the data were processed

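RNA was measured by poly(A)-selected mRNA sequencing. Per the labels and the study's methods, reads were quantified with Salmon 1.4.0 on mm10 and summed to genes; the annotation and strand handling of the counting are not given in the sources used here. The deposited signal values are gene counts that the authors divided by DESeq2 size factors, in 1 table for the knockdown and 1 for the inhibitors. Whole reads were recovered from the steps of these values (100% came out whole). The 3 tables of the authors' own comparisons (fold changes and p-values) were not used.

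Values were tested as log2(normalized count + 1) with limma 3.58.1 (R 4.3.3, trended variance), over genes that reached 10 normalized counts in 3 or more libraries of the fit, with Benjamini-Hochberg adjustment over all genes tested and a threshold of 0.05. The 6 knockdown libraries formed 1 fit and the 9 inhibitor libraries another. On recovered reads, edgeR 4.0.16 and DESeq2 1.42.0 called 1712 and 2151 genes after knockdown, 3620 and 4026 under MS023, and 1242 and 1810 under GSK3368715. Tested on simulated data with 200 genes changed by a fold of 2, limma recovered 99.0% in the knockdown design and 97.5% in the inhibitor design. The changed genes were drawn only from those above a minimum mean, and every gene had the same small spread. Many histone members lie lower, so these shares do not apply to them. Depth limits precision for genes near the minimum of 10.

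Members followed the symbol rule. Values per library were planned for at most 12 called members and are given for all 17, and for the highest variant of each family. Genes of the lists (3′ end formation and decay, transcription, chaperones, S phase) were to be named where called with a log2 change of 0.5 or more either way, with Slbp, Npat, Asf1b and Prmt1 in any case; other list genes were named after their values were seen. Markers of colon epithelium, fibroblasts, leukocytes and neurons were counted as well. The members and lists were chosen with earlier results of these data known. Same-numbered libraries of different groups correlated at 0.06, 0.12 and 0.08 in the knockdown experiment, where differently numbered ones had -0.09 to 0.03. In the inhibitor experiment same-numbered libraries had -0.10 to 0.11. As these values were small, replicate numbers were not used as pairs. Alternatives were other pseudocounts, filters, scalings and tools, a replicate block, and each library left out. Gene models were from GENCODE M21, and copies were found with BLAST 2.17.0.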

Additional observations from a re-analysis of the deposited data

How the results depend on the processing

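Of 31 calls of a member in a comparison, 12 were tested and held under every alternative run, the minimum log2 change of 0.5 aside: H1f2, H2ax and H2bc4 in all 3 comparisons with a control, and H3c14, H1f10 and H2az2 under MS023. With those, 16 held under every such alternative that kept all libraries. In at least 1 alternative 9 calls were not tested, among them H3c14 after knockdown with a minimum of 50. Over 571 alternatives in which a call was tested, 492 kept direction and call, 79 lost the call and 0 reversed. After knockdown 7 members were called higher, 4 with a minimum of 50 normalized counts, and 4 to 6 with each library left out. The 2 called lower became 1 when libraries were scaled to the same total or without the variance trend, 0 with a log2 change of at least 0.5, and 0 to 3 with each library left out. Under MS023, the 11 called higher became 5 to 11 with each library left out, and the 4 called lower became 2 with a minimum of 50 and 2 to 4 with each library left out. Under GSK3368715, the 7 called higher became 4 when only the groups compared were fitted and 3 to 7 with each library left out. Between the inhibitors, the count of 0 higher became 1 with DESeq2 on recovered reads. The cause of these changes was not tested. As a mean of log2 values over members tested, the replication-dependent difference was 0.68 after knockdown, against 0.31 for the summed level. That mean includes H2ac6, H2bc8 and H3c4, which had to be higher in shPrmt1 libraries. It was not taken without them, and their removal moved the median from 0.57 to 0.50. Under GSK3368715 the difference was 0.42, against 0.20 for the summed level (0.08 without GSK3368715 replicate 2). The 0.42 also includes genes that needed inhibitor libraries to pass the minimum. By library the mean was 5.18, 5.75 and 4.76 under GSK3368715 and 4.81, 4.86 and 4.77 in vehicle, so the groups overlapped. The variant difference after knockdown was 0.14 as a mean of log2 values and 0.07 as a sum (0.03 to 0.10 with each library left out). The variant sum under MS023 differed by 0.04 (0.02 without vehicle replicate 3 to 0.08 without vehicle replicate 1). For replication-dependent genes under MS023 the difference of the sum was -0.08 (-0.15 to -0.02 with each library left out). Their mean of log2 values differed by 0.02, the opposite sign. A sum is weighted by its highest genes.

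With the replicate number as a block, which the main fit did not use, 2 members were called lower under MS023 against 4 without it, and the knockdown kept counts of 7 higher and 2 lower.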

Other observations

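Histone genes whose symbols fall outside the rule were read in the same way, and H2aw, an H2A gene, is given here after its values were seen. It had 25.5, 30.2 and 25.4 in shControl and 69.7, 63.0 and 50.02 normalized counts in shPrmt1 libraries (log2 fold change 1.13 ± 0.21 (SE), adjusted p = 0.0098 by limma). Under MS023 it had 186, 129.6 and 149.5 in vehicle and 227, 247 and 215 in MS023 libraries (log2 fold change 0.58, adjusted p = 0.0292), and under GSK3368715 its log2 fold change was 0.46 (adjusted p = 0.117). Macroh2a1, which encodes the variant macroH2A, did not pass the test in any of these comparisons, with log2 fold changes of -0.11, 0.09 and 0.13. Cenpa, the centromeric H3 variant, had -0.25 after knockdown (adjusted p = 0.11), -0.19 under MS023 (adjusted p = 0.0243) and -0.04 under GSK3368715 (adjusted p = 0.667).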
